A study of Mus musculus with 2 samples.

Results

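Ccl21a-high medullary cells with Ccl11 are thymic epithelial cells (TECs) that carried much Ccl21a RNA together with Ccl11 RNA in droplet-based single-cell RNA-sequencing (scRNA-seq). There were 1296 of them among 8303 cells that passed the quality filter. They were chosen by measured RNA levels, in UMIs per 10000 UMIs of the cell, where a UMI (unique molecular identifier) marks a single captured RNA molecule. A member had at least 60 for Ccl21a and at least 2 for Ccl11. It also had under 1 for Aire, under 15 for Psmb11 and Prss16 together, under 4 for Mki67 and Top2a together, under 6 for Mcm2 to Mcm7 together and under 5 for Avil and Trpm5 together. These limits left out cells with higher levels of Aire and of the cortical, cycling and tuft genes, but did not require that these genes were absent. None of the genes of the rule is a finding below.

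The cells came from 2 libraries, each made from the pooled thymi of 3 female C57BL/6 mice and sorted as EpCAM+ CD45- TER119- cells. One library came from untreated mice and the other from mice analysed 15 days after sublethal γ-irradiation, at 9 weeks of age by the sample characteristics, although the protocol of the labels gives a younger age. Labels for the condition disagree. The deposited files name the library with 4937 barcodes as control and the library with 7167 barcodes as irradiated, whereas the sample titles give the opposite. The smaller library could not have held the number of irradiated cells that was counted for the study after filtering, and the same filter applied here kept 3233 and 5070 cells. The libraries are therefore called control-file and irradiated-file libraries, after the deposited files, and every direction given between them would be the opposite under the titles. The control-file library held 58185309 UMIs and the irradiated-file library held 82201657. They shared 17 cell barcodes, none of which was a member in both. Each condition has only 1 library, so differences between the conditions could not be tested against replicates. The 95% intervals below are exact Poisson intervals for sums of UMIs and Clopper-Pearson intervals for shares of cells, which cover counting error only.

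The thymic medulla is built by medullary TECs (mTECs), which display self-antigens to developing T cells. Ccl21a encodes a secreted ligand of the receptor CCR7 and draws positively selected thymocytes from the cortex into the medulla. It is made by mTECs that have low Aire and that share keratins and adhesion molecules with other basal epithelia. Ccl11 encodes eotaxin, a chemokine best known for attracting eosinophils through the receptor CCR3. Acta2 (smooth muscle actin), Mgp (a matrix protein that inhibits calcification) and Col6a1 (a chain of collagen VI) are better known from mesenchymal cells, and were listed together with Ccl21a and Ccl11 as markers of these cells.

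Members made up a similar share of both libraries. There were 503 members in the control-file library, 15.6% of its kept cells (14.3% to 16.9%), and 793 in the irradiated-file library, again 15.6% (14.7% to 16.7%). The log2 ratio of the shares was 0.01, with a range of -0.20 to 0.22. The Ccl11 limit divided the Ccl21a-high cells that met all other limits. Of these, 57.9% of 869 cells in the control-file library (54.5% to 61.2%) and 57.8% of 1372 in the irradiated-file library (55.1% to 60.4%) reached it. The remaining 366 and 579 cells are called Ccl11-low cells and are the closest set for comparison. Members had a median of 10472 UMIs in the control-file library and 10016 in the irradiated-file library, and Ccl11-low cells had 10712 and 9465. Members had a median of 3433 and 3351 detected genes and a median mitochondrial share of 7.15% and 6.90%. All other kept cells were deeper, with medians of 14371.5 and 13918 UMIs.

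The number of Ccl11 UMIs per cell was uneven. In the control-file library 261 Ccl21a-high cells had no Ccl11 UMI, 71 had 1, and 403 had more than 5. In the irradiated-file library the numbers were 422, 122 and 627. The Ccl11 level of members had a median of 13.7 per 10000 and a maximum of 162 in the control-file library, and a median of 15.6 and a maximum of 205 in the irradiated-file library. The lowest member stood at 2.04 and 2.02, and the highest Ccl21a-high cell left out for Ccl11 stood at 1.97 and 1.98. For Ccl21a the lowest member stood at 60.07 and 60.04, and the highest cell left out at 59.08 and 59.61. After thinning each cell to 4000 UMIs, Ccl11 was found in 14.2% of Ccl11-low cells of the control-file library (10.8% to 18.2%) and in 13.3% of 577 such cells of the irradiated-file library (10.7% to 16.4%). Other TECs also gave such UMIs. Tuft cells had at least 5 per 10000 for Avil and Trpm5 together, Aire-high cells at least 5 for Aire, and cortical cells at least 15 for Psmb11 and Prss16 together. The shares were 11.8% of tuft cells of each library (7.26% to 17.8%), at median depths of 13713 and 10759 UMIs, 4.53% and 4.33% of Aire-high cells, 4.35% and 4.40% of cortical cells, and 8.41% and 18.8% of the Pdpn cells described below. Only the Ccl11-low cells were chosen by a Ccl11 limit, so these shares are given side by side and not compared.

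**Figure D1:**
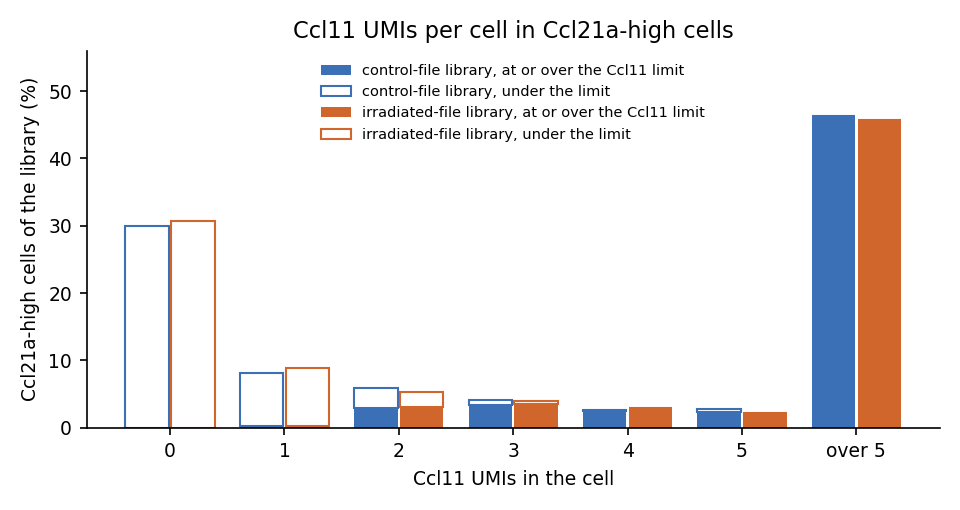
Percentage of Ccl21a-high cells (vertical axis) by the number of Ccl11 UMIs in the cell (horizontal axis), for 869 cells of the control-file library (blue) and 1372 of the irradiated-file library (orange). Filled bars are members, open bars are Ccl11-low cells, and both libraries show a group of cells at 0 and a larger group over 5 UMIs.

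As a description of the choice by Ccl11 and Ccl21a, members carried 80.5% of the Ccl11 UMIs of the kept cells in the control-file library and 71.3% in the irradiated-file library, and 46.4% and 42.6% of the Ccl21a UMIs. Another 155 and 353 kept cells reached the Ccl11 limit but failed a different one. Of these, 112 and 254 had too little Ccl21a, 60 and 104 had too much Aire, and 7 and 71 had too many UMIs of the Mcm genes, with some cells failing several limits. These cells were 4.79% of kept cells in the control-file library and 6.96% in the irradiated-file library.

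Genes of TECs that the rule did not use were present in members. Epcam, the adhesion molecule by which the cells were sorted, stood at 9.03 summed UMIs per 10000 in members of the control-file library and at 9.87 in the irradiated-file library. A UMI was found after thinning in 91.8% and 95.8% of members. Of 12 listed TEC genes, all 12 had at least 50 UMIs in members of both libraries together, and their sum was 52.9 and 53.01 per 10000. Krt18 (17.3 and 16.5) and Krt8 (15.8 and 16.1), the simple epithelial keratins, led this list. Trp63 (2.55 and 2.50), the transcription factor of basal epithelia, and Pax9 (1.71 and 1.57), a factor of the pharyngeal endoderm, were also present. Against all other kept cells, 3 of the 12 listed TEC genes were lower by at least 2-fold in both libraries and none higher. They were Krt19 (0.09 and 0.10 against 0.50 and 0.29), Cldn3 (0.08 and 0.08 against 1.10 and 0.74) and Cldn4 (0.13 and 0.14 against 1.21 and 0.89). Of all genes compared there, 27.7% were lower. In cortical cells Krt18 (60.5 and 61.02) and Krt8 (46.3 and 47.6) were higher, as were the TEC factors Foxn1 (1.55 and 1.72 against 0.38 and 0.32 in members) and Pax1 (7.12 and 7.496 against 1.61 and 1.57), and Epcam (2.999 and 3.26) was lower. Trp63 (2.30 and 2.53) and Pax9 (1.56 and 1.59) were similar there. Keratins of basal epithelia did separate them, with Krt17 at 45.6 and 46.8, Krt14 at 25.99 and 26.9 and Krt5 at 20.96 and 21.4 in members, against 17.2 and 23.7, 1.76 and 1.59, and 3.12 and 5.75 in cortical cells. The laminin receptor subunit Itga6 was at 6.87 and 7.15 against 1.83 and 1.4995. Not every adhesion gene listed with these keratins was higher in members. Dst went the other way, at 3.62 and 2.80 in members against 8.99 and 8.69 in cortical cells, and Plec was slightly lower in members. The basal keratins were not particular to members. In Ccl11-low cells Krt17 was at 48.2 and 45.5, Krt14 at 21.6 and 19.1 and Krt5 at 16.5 and 16.5, and none reached a 2-fold difference in both libraries. Markers of mTECs with low Aire were mixed. Ly6a was at 17.9 and 19.5 in members against 2.40 and 1.62 in cortical cells, whereas Lifr, the receptor of leukemia inhibitory factor, was at 5.29 and 6.10 against 7.02 and 6.60. In Ccl11-low cells Ly6a was at 12.0 and 13.1, and in Pdpn cells at 19.3 and 19.8. Ackr4, a scavenging chemokine receptor, was at 0.10 and 0.20 in members and at 0.55 and 0.30 in all other kept cells. Apart from mitochondrial and ribosomal genes, the 10 most abundant were Malat1, Ccl21a, Gm42418, Tpt1, Cd74, Ifitm3, H2-K1, Eef1a1, Tmsb4x and Actb. Ccl21a made up 1.30% and 1.26% of all UMIs of members. The annotation lists 2 genes under this symbol and near-identical copies exist, so its reads cannot be assigned to a copy with certainty.

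Markers of other cell types were mostly near 0. Of 9 endothelial genes, Cdh5, Kdr, Emcn and Tie1 had 0 UMIs in members, and the list summed to 0.15 and 0.10 per 10000, most of it Flt1, a receptor of vascular endothelial growth factor that was called higher than in Ccl11-low cells (0.13 and 0.08 against 0.04 and 0.01). The thymocyte list summed to 0.31 and 0.26 per 10000 over 13 genes, led by Trbc2, with Cd3e at 2 and 3 UMIs in all members. The list of myeloid, B and erythroid genes summed to 0.22 and 0.13, led by Lyz2, with Ptprc at 1 and 5 UMIs. The fibroblast list summed to 3.79 and 3.01 per 10000 over 14 genes. Most of it was Dcn (decorin, a matrix proteoglycan) at 2.67 and 1.78, followed by Fbn1 at 0.57 and 0.70 and Col3a1 at 0.33 and 0.35. The defining fibroblast receptors Pdgfra (10 and 10 UMIs) and Pdgfrb (2 and 2 UMIs), and Col1a2 (3 and 2 UMIs), were near 0, and Pi16 had none. Dcn was at a similar level in Ccl11-low cells, 2.92 and 2.29. After thinning, its UMIs were found in 32.2% and 25.7% of members, in 8.07% and 3.73% of tuft cells, in 40.6% and 22.0% of cortical cells and in 91.6% and 76.2% of Pdpn cells, so Dcn did not set members apart.

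Genes better known from contractile cells were abundant. The list of 15 smooth muscle and pericyte genes summed to 53.7 per 10000 in members of the control-file library and to 54.2 in the irradiated-file library, and 13 of the 15 had at least 50 UMIs in both libraries together. Tagln (13.7 and 13.2), an actin-binding protein, was the most abundant. Acta2 stood at 13.5 (13.2 to 13.8) and 13.1 (12.8 to 13.3), Tpm2, a tropomyosin, at 9.28 and 9.07, and Cald1, which binds actin and myosin, at 5.72 and 6.25. Myh11, the smooth muscle myosin heavy chain, reached 0.92 and 1.01, whereas calponin (Cnn1) had 0 and 1 UMIs. Acta2 differed strongly between members. Its median over cells was 6.97 and 3.97 per 10000, the lower quartile was 0 in both libraries, and the highest cell reached 125 and 133. After thinning, 64.6% (60.3% to 68.8%) and 59.1% (55.6% to 62.6%) of members had an Acta2 UMI, against 8.70% and 3.73% of tuft cells. These genes were not particular to cells with Ccl11. The list summed to 55.6 and 51.6 in Ccl11-low cells, and its median log2 ratio of members over Ccl11-low cells was -0.01 and 0.03.

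Of the 5 markers, Acta2, Mgp and Col6a1 were not in the rule, and they separated the sets to different degrees. Acta2 in Ccl11-low cells stood at 12.1 and 10.7, so that members were higher by a log2 ratio of only 0.15 and 0.29. Mgp stood at 17.8 (17.4 to 18.1) and 18.5 (18.2 to 18.8) in members and at 12.0 and 14.5 in Ccl11-low cells. Col6a1 stood at 7.86 (7.63 to 8.09) and 8.16 (7.97 to 8.35) in members and at 4.59 and 4.66 in Ccl11-low cells, a log2 ratio of 0.77 and 0.81. All 3 differences exceeded the counting error in both libraries, and none reached 2-fold in both. In all other kept cells Acta2 stood at 2.70 and 3.27, Mgp at 3.30 and 3.13 and Col6a1 at 1.13 and 1.35. A UMI of each of the 3 genes was found together in 68.2% of members (63.9% to 72.2%) and in 50.3% of Ccl11-low cells of the control-file library, and in 62.0% (58.6% to 65.4%) and 45.9% of those of the irradiated-file library, without thinning.

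**Figure D2:**
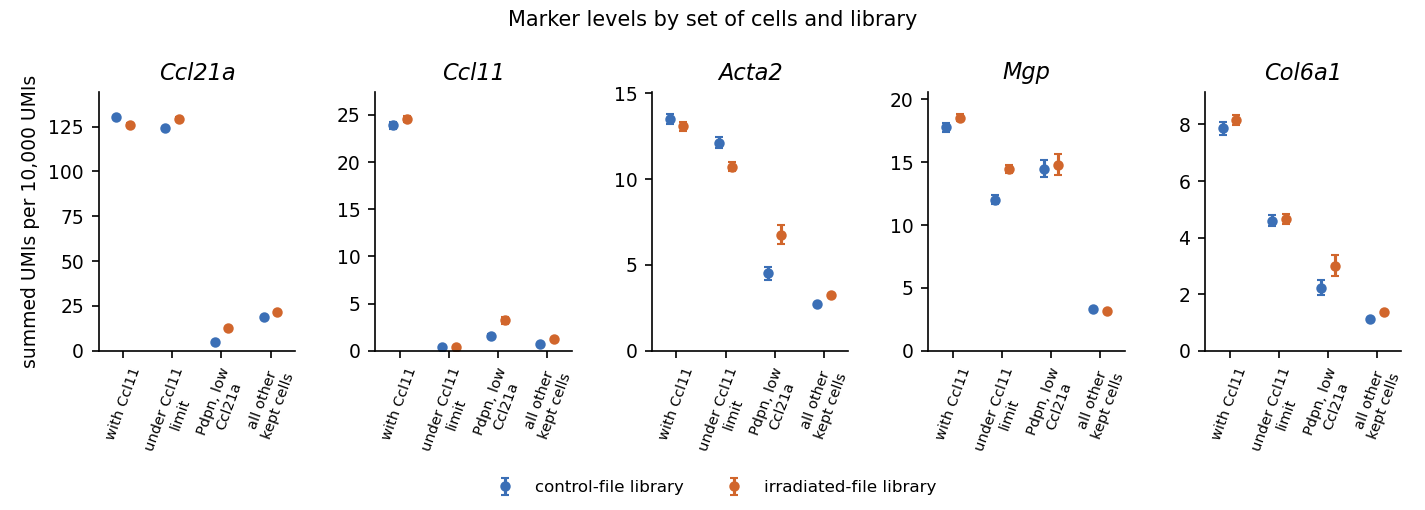
Summed UMIs per 10000 UMIs (vertical axis, starting at 0) of the 5 markers in members, Ccl11-low cells, Pdpn cells under the Ccl21a limit and all other kept cells, with exact Poisson 95% intervals. Ccl21a and Ccl11 were used to choose the sets, Acta2 is similar in members and Ccl11-low cells (13.5 and 12.1 in the control-file library), and Col6a1 is lower in Ccl11-low cells (4.59 against 7.86).

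The comparison with Ccl11-low cells asked what else separated Ccl21a-high cells with Ccl11 from those without. A gene was called where its log2 ratio was at least 1, or at most -1, in both libraries, among 10538 genes with at least 50 UMIs over both sets in each library. Of these, 53 were higher in members, 0.503% of the genes compared, and 66 were lower, 0.626%. The median log2 ratio over all genes compared was -0.06 in the control-file library and -0.07 in the irradiated-file library. Ccl11 itself is among the higher genes by choice. The calls have no test, since the cells were chosen from the same libraries.

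Ccl7 and Ccl8, which belong to the same gene cluster as Ccl11, were called higher in members. Both are monocyte chemoattractants and lie beside Ccl11 on chromosome 11 of GRCm38, in a stretch of 81.2 kb from Ccl2 (start 82035571) to Ccl8 (end 82116799). Ccl11 itself lies at chr11:82057823-82062955 on the plus strand, between Ccl7 (chr11:82045712-82047525) and Ccl12 (chr11:82101845-82103400). Ccl8 was at 0.69 in members and 0.14 in Ccl11-low cells of the control-file library, and at 1.59 and 0.20 in the irradiated-file library. These values are log2 ratios of 2.33 and 2.98. Ccl7 was at 0.94 and 0.30 in the control-file library and at 0.63 and 0.17 in the irradiated-file library, log2 ratios of 1.64 and 1.93. Ccl2 was at 0.22 and 0.16, and at 0.17 and 0.03, with log2 ratios of 0.47 and 2.32, and was not called. Ccl12 had 2 and 5 UMIs in members, too few to be compared. A UMI of Ccl2, Ccl7 or Ccl8 was found in 43.5% of members of both libraries, against 14.2% and 11.9% of Ccl11-low cells. Of the 15 listed chemokines that could be compared, Ccl11 and Ccl21a were in the rule. Of the other 13, Ccl7 and Ccl8 were called higher and none lower. Ccl19, the other CCR7 ligand, was at 4.01 and 4.38 in members and at 5.98 and 6.84 in Ccl11-low cells. Cxcl10, an interferon-inducible chemokine, was at 14.2 and 7.90 in members and at 13.25 and 5.02 in Ccl11-low cells.

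The chitinase-like genes Chil3 and Chil4 were among the genes that separated the sets most. They encode secreted proteins also known as Ym1 and Ym2, which are known from alternatively activated macrophages and from airway epithelium in type 2 inflammation. Chil3 was at 0.72 in members and 0.09 in Ccl11-low cells of the control-file library, and at 1.41 and 0.24 in the irradiated-file library, log2 ratios of 3.01 and 2.52. Chil4 was at 1.04 and 0.21, and at 2.57 and 0.23, log2 ratios of 2.27 and 3.49. The levels came from few cells. A UMI of either gene was found in 23.1% of members (19.4% to 27.0%) and 3.55% of Ccl11-low cells of the control-file library, and in 29.4% (26.2% to 32.7%) and 7.77% in the irradiated-file library. The tenth of members with the most Chil4 UMIs held 95.1% and 93.4% of them. Chil3 lies at chr3:106147554-106167564 and Chil4 at chr3:106201490-106219507, both on the minus strand, in a stretch of 72.0 kb. They are near-identical paralogs, so UMIs may have been split between them, and their separate levels are uncertain.

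Upstream sequences of Chil3, Chil4 and Ccl8 are shown because these genes went with Ccl11 and, of the genes with the largest ratios, form a paralog pair and a member of the Ccl11 cluster. Of 11 genes looked up by symbol in the RefSeq promoter table (GRCm38.p6), 7 matched, and Ccl11, Ccl2, Ccl7 and Mgp did not. The sequences run 5′ to 3′ on the strand of the gene and end where the annotated exon begins. Capitals mark the letters TTCNNNGAA, a palindrome read on both strands that STAT factors can bind.

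Chil3 (chr3:106167565-106167814, minus strand): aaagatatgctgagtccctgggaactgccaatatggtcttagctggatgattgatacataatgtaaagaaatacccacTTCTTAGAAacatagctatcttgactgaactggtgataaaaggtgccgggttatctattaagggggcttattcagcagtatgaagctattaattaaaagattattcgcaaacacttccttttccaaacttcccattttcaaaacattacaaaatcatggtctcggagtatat
Chil4 (chr3:106219508-106219729, minus strand): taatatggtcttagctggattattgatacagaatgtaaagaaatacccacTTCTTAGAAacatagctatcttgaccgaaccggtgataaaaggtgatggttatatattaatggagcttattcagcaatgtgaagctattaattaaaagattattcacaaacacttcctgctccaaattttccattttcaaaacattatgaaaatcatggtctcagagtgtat
Ccl8 (chr11:82114935-82115184, plus strand): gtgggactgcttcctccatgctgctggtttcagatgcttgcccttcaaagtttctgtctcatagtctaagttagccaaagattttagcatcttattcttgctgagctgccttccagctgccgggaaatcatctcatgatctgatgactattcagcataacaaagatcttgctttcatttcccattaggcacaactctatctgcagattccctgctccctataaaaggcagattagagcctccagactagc

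The Chil3 and Chil4 stretches were identical at 201 of 221 aligned bases (91.0%), and each held TTCTTAGAA at the same aligned place. The Ccl8 stretch held no match. Over all 32851 promoters of the table, 7.02% held TTCNNNGAA in the 250 bases before the start. A match describes the letters only, and no binding was measured. Among 14 listed targets and members of the STAT3 and STAT6 pathways, 10 could be compared and only Chil3 was called higher. Stat6 was at 0.28 and 0.25 in members and at 0.24 and 0.24 in Ccl11-low cells. The receptor chains Il4ra (0.54 and 0.50) and Il13ra1 (0.84 and 0.92) had log2 ratios over Ccl11-low cells of 0.34 and 0.17, and of 0.08 and -0.01.

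The other higher genes with the largest ratios were of mixed function and low level. Outside the rule, Gm42722 ranked first by the smaller ratio of both libraries. It was at 0.43 and 0.37 in members against 0.04 and 0.06 in Ccl11-low cells (log2 ratios 3.33 and 2.70). Ear2, a ribonuclease named for eosinophils, was at 0.23 and 0.10 in members (log2 ratios 2.76 and 2.16). Its family has close copies, so its reads are uncertain. Ces1b, a carboxylesterase, was at 0.23 and 0.18 (2.11 and 1.88). Mctp1, a calcium-binding membrane protein, was at 0.22 and 0.23 (2.003 and 2.32). Pifo, a gene of primary cilia, was at 0.15 and 0.10 (2.63 and 2.70), and the interferon-inducible Ifi213 at 0.11 and 0.09 (2.04 and 2.91). Asprv1, an aspartic protease of skin, was at 0.11 and 0.07, but 67.7% and 55.9% of its UMIs came from a single cell.

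Matrix genes divided. Of 24 listed interstitial matrix genes, 17 could be compared, of which Col3a1, Col5a2 and Col6a2 were called higher and Fn1 lower. Col6a2, the partner chain of Col6a1, was at 4.28 and 4.09 in members and 2.01 and 1.91 in Ccl11-low cells, log2 ratios of 1.09 and 1.10. Col6a1 and Col6a2 are neighbours on chromosome 10, within 130 kb, and were both abundant, whereas Col6a3, the third chain of the common collagen VI molecule, had 0 and 2 UMIs. Col5a2 was at 0.92 and 0.76 (log2 ratios 1.37 and 1.23) and Col3a1 at 0.33 and 0.35 (2.03 and 1.15). Fn1, fibronectin, went the other way, with 0.34 and 0.41 in members and 0.90 and 1.02 in Ccl11-low cells. Sparc, a collagen-binding protein, was at 3.78 and 3.81 with log2 ratios of 0.16 and 0.22, and Tnc, tenascin C, at 3.04 and 3.25 with -0.25 and -0.24. Of 23 basement membrane genes 16 could be compared and none was called. Col4a1 (2.19 and 1.95), Lama3 (1.54 and 1.59) and Lamb3 (1.19 and 0.95) were among the most abundant. Among 16 compared genes of matrix turnover, only Timp1, an inhibitor of metalloproteinases, was called higher, at 1.38 and 1.97 in members and 0.67 and 0.59 in Ccl11-low cells. Timp3 was at 2.85 and 2.003, and Mmp14 at 1.77 and 1.67.

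Of 8 compared genes of the cortical TEC list 2 (Psmb11 and Prss16) were in the rule. Of the other 6, Tbata and Enpep, an aminopeptidase, were called lower in members and none was called higher. Tbata, a gene named for thymus, brain and testis, was at 1.60 and 1.74 in members and at 4.38 and 5.59 in Ccl11-low cells, log2 ratios of -1.45 and -1.68. Ctsl, the cathepsin of the cortex, was at 23.3 and 27.4 in members and at 32.2 and 40.9 in Ccl11-low cells, and Ccl25 at 0.45 and 0.52 against 0.88 and 1.498. Crip3, a LIM-domain protein of thymus, was at 0.15 and 0.27 in members and at 0.57 and 1.16 in Ccl11-low cells. Ranked by the smaller of the changes in both libraries, the lowest ratio was that of Lpl, lipoprotein lipase, at 0.016 and 0.033 in members and 0.17 and 0.22 in Ccl11-low cells (log2 ratios -3.34 and -2.74). Gm14207 came next (log2 ratios -2.28 and -2.63). S100a2 (0.08 and 0.06 against 0.34 and 0.26), the homeobox gene Nkx6-2 (0.03 and 0.04 against 0.17 and 0.15) and the protease Prss23 (0.01 and 0.02 against 0.10 and 0.06) followed. Of 21 compared cytokines and growth factors 2 were lower and none higher. They were Igfbp7, at 0.24 and 0.26 against 0.48 and 0.76, and the stem cell factor Kitl, at 0.07 and 0.09 against 0.22 and 0.25. Igfbp5 was at 12.7 and 14.5 against 21.6 and 20.9, Igfbp4 at 5.67 and 5.54 against 3.63 and 3.32, and the T cell growth factor Il7 at 2.44 and 2.35 against 2.49 and 2.62. Wnt4 was at 2.67 and 2.18 against 3.52 and 3.48.

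**Figure D3:**
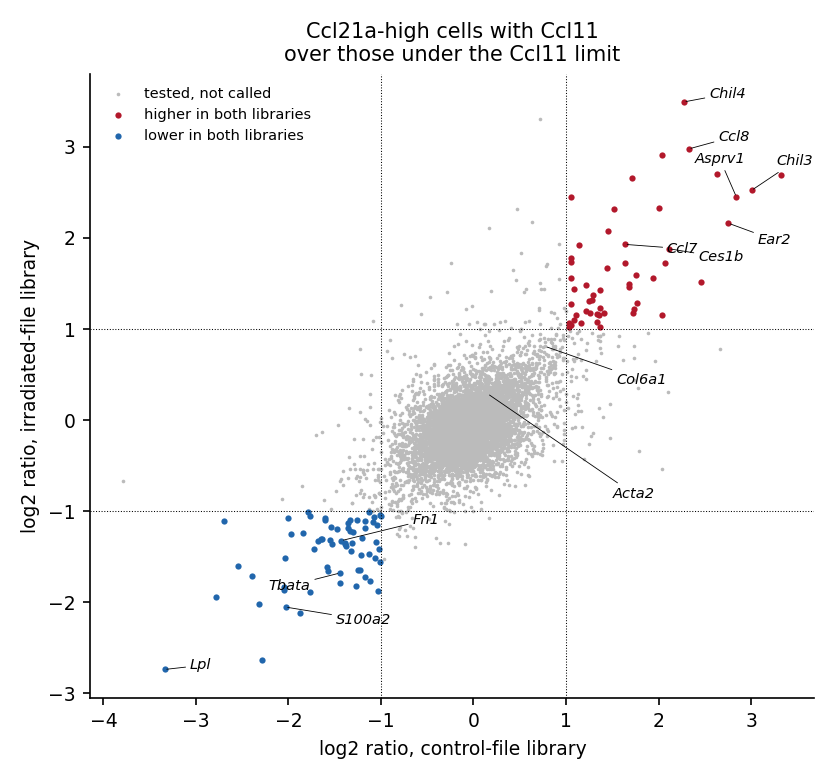
Log2 ratio of members over Ccl11-low cells in the control-file library (horizontal axis) and in the irradiated-file library (vertical axis), for genes with at least 50 UMIs in each library that were not in the rule. Red points were higher and blue points lower by a log2 ratio of 1 (dotted lines) in both libraries. Chil3, Chil4 and Ccl8 stand at the upper right and Lpl at the lower left, while Acta2 and Col6a1 lie between the lines.

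Most signalling and antigen presentation lists held no gene called between members and Ccl11-low cells. Since only 0.503% of all genes compared were higher and 0.626% lower, the absence of calls in a short list says little about that list. None of 22 genes of the NF-κB pathway was called, with Nfkbia, the inhibitor induced by the pathway, at 7.75 and 8.10 and Relb at 1.28 and 1.44 in members. None of 19 receptors was called. None of 11 MHC class II genes was called, with Cd74 at 93.5 and 103 in members against 104 and 112 in Ccl11-low cells, H2-Ab1 at 50.7 and 54.8, H2-Eb1 at 38.9 and 45.3 and H2-Aa at 37.5 and 41.4. None of 12 MHC class I genes was called, with H2-K1 at 60.7 and 69.997. None of 18 interferon response genes was called. Their median log2 ratio was 0.28 and 0.30, against -0.06 and -0.07 over all genes compared. The list summed to 36.6 and 35.97 per 10000 in members and to 29.6 and 31.3 in Ccl11-low cells. Isg15 was at 5.73 and 5.099 in members and 3.87 and 3.93 in Ccl11-low cells. Notch3, a Notch receptor, was the only gene called among 19 targets and members of the SMAD, Notch and Hippo pathways. It was at 0.29 and 0.36 in members and at 0.11 and 0.11 in Ccl11-low cells. Among the most abundant genes of that list were Id3 (6.27 and 6.19 against 4.63 and 4.33) and Id1 (4.88 and 6.53 against 3.56 and 4.999), inhibitors of helix-loop-helix factors.

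Several of the genes higher than in Ccl11-low cells differed with the amount of Ccl11 within the members. Ccl11 is in the rule and had already divided the sets, so these groups are a description and no separate support. Counting intervals are not given for them. Members of each library were ranked by Ccl11 and divided into 3 groups of nearly equal size, with median Ccl11 of 4.62, 13.8 and 43.2 in the control-file library and 4.66, 15.8 and 43.5 in the irradiated-file library. Median depths were 10539.5, 10018 and 10948 UMIs in the control-file library and 9790, 9744.5 and 10170 in the irradiated-file library. Of 7929 genes compared between the high and the low group, 19 were higher in the high group by a log2 ratio of at least 1 in both libraries, Ccl11 among them, and 7 were lower. Among the lower genes was Asprv1, at 0.227, 0.058 and 0.032 from the low to the high group of the control-file library and at 0.149, 0.028 and 0.027 in the irradiated-file library, although it was called higher in members than in Ccl11-low cells. A single cell held 67.7% and 55.9% of the Asprv1 UMIs of members, and its part in these values was not tested. Ccl8 was at 0.37, 0.23 and 1.49 from the low to the high group of the control-file library and at 0.49, 1.61 and 2.65 in the irradiated-file library. Ccl7 was at 0.37, 0.62 and 1.88, and at 0.33, 0.59 and 0.97. Ccl2 was at 0.09, 0.28 and 0.30, and at 0.09, 0.21 and 0.22. Thus Ccl2, Ccl7 and Ccl8 were higher in the high group than in the low group of both libraries, although Ccl8 was lowest in the middle group of the control-file library.

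Chil3 was at 0.22, 0.63 and 1.35 from the low to the high group of the control-file library, and at 0.64, 0.87 and 2.69 in the irradiated-file library. Chil4 was at 0.32, 0.97 and 1.87, and at 1.28, 0.71 and 5.65. Both were highest in the high group, with a dip of Chil4 in the middle group of the irradiated-file library. Tac1, the precursor of substance P, was at 0.09, 0.11 and 0.60, and at 0.07, 0.18 and 0.31. Basp1, a membrane protein of growing axons, had the highest level among the higher genes after Ccl11, at 2.59, 3.36 and 5.95, and at 2.40, 3.79 and 5.68. Col6a1 was at 6.98, 7.50 and 9.15, and at 6.71, 8.20 and 9.54, and the basal keratin Krt5 at 17.4, 20.2 and 25.5, and at 18.2, 21.6 and 24.3. Acta2 was lower in the high group, at 14.9, 14.3 and 11.2, and at 14.5, 12.2 and 12.4. Mgp was at 19.3, 18.1 and 15.8 in the control-file library and at 18.4, 18.3 and 18.9 in the irradiated-file library. Tbata was at 2.63, 1.15 and 0.98, and at 3.29, 1.07 and 0.86, and Ccl25 at 0.68, 0.40 and 0.26, and at 0.86, 0.38 and 0.32.

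**Figure D4:**
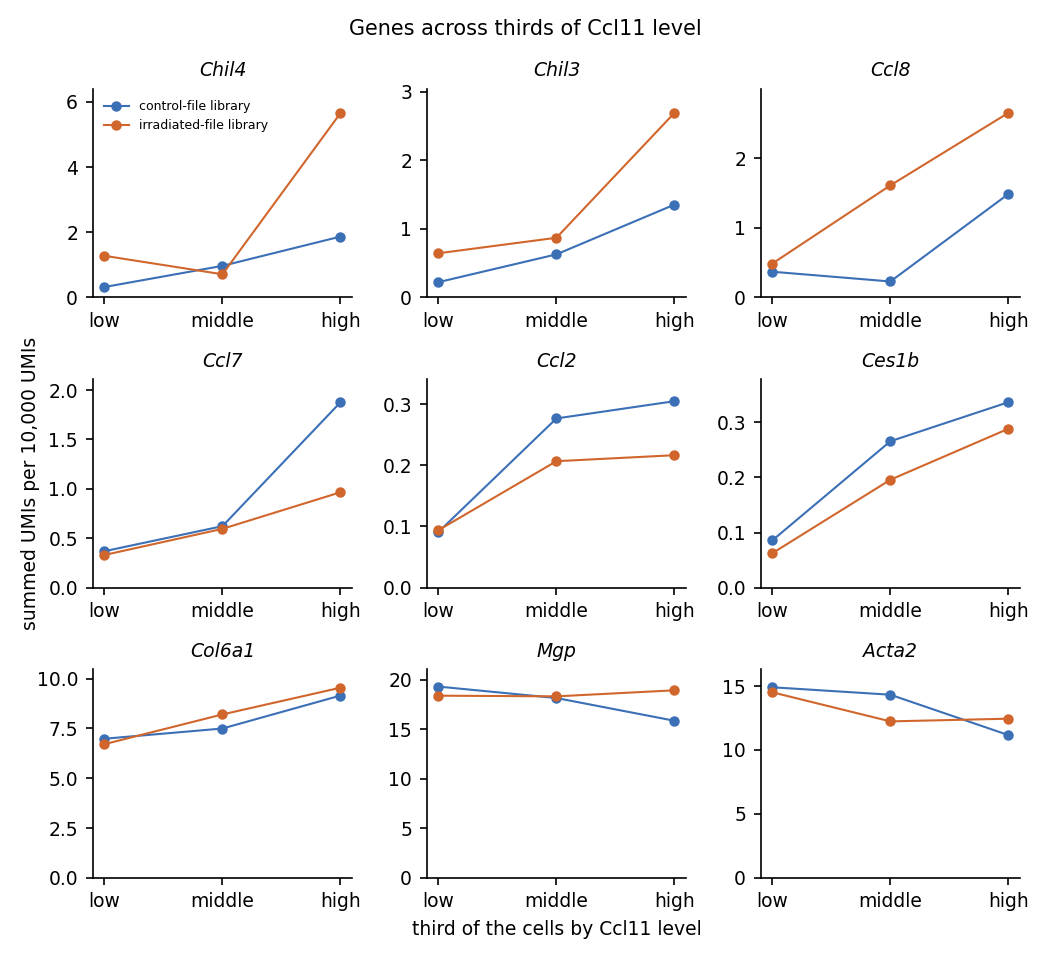
Summed UMIs per 10000 UMIs (vertical axes, starting at 0) in members grouped by low, middle and high Ccl11 level (horizontal axes), for the control-file library (blue, 168, 168 and 167 cells) and the irradiated-file library (orange, 265, 264 and 264 cells). Chil3, Chil4, Ccl8, Ccl7, Ccl2 and Ces1b are highest in the high group of both libraries, while Acta2 is highest in the low group, and Mgp is highest in the low group of the control-file library and in the high group of the irradiated-file library.

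Cells with Pdpn (podoplanin, a membrane mucin) but little Ccl21a were the other set compared. They had at least 2 for Pdpn, under 60 for Ccl21a and the same further limits, and numbered 107 in the control-file library and 80 in the irradiated-file library, 3.31% and 1.58% of kept cells. Of 9730 genes compared, 347 were higher in members (3.57%) and 317 lower (3.26%). Both counts changed strongly under some alternatives, which are given in the last section. Wfdc18, a protein with a protease inhibitor fold, had the highest level among the leading genes, at 27.2 and 31.6 in members against 2.18 and 3.26. Cxcl14, a chemokine of epithelia, was at 2.25 and 1.90 against 0.17 and 0.19, and Pthlh, parathyroid hormone-related protein, at 2.12 and 2.07 against 0.10 and 0.22. Lypd1 was at 0.83 and 0.82 against 0.05 and 0.06, and Adcy2, an adenylyl cyclase, at 0.29 and 0.23 against 0.02 and 0.01. Col2a1, the collagen of cartilage, was at 0.23 and 0.17, with 0 UMIs in Pdpn cells of the control-file library. Mfap4, a matrix protein, was at 0.19 and 0.15, with 0 UMIs in those of the irradiated-file library. Col2a1 and Mfap4 reached the minimum of 50 UMIs through members alone, so their call as higher followed from the filter.

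Of 13 smooth muscle genes compared, 6 were called higher in members than in Pdpn cells and 1 lower. Tpm2 was at 9.28 and 9.07 against 3.03 and 3.91, and Cald1 at 5.72 and 6.25 against 0.96 and 1.89. Mgp did not separate these sets (17.8 and 18.5 against 14.5 and 14.8), and Dcn was higher in Pdpn cells, at 18.1 and 9.32 against 2.67 and 1.78. The lowest ratios belonged to Bpifa1, a secreted airway protein (0.05 and 0.06 against 4.69 and 26.8), the intestinal peptide Guca2b (0.02 and 0.01 against 1.31 and 0.65), Serpinf1 (0.04 and 0.05 against 2.48 and 1.90), Gsta4 (0.02 and 0.03 against 0.86 and 0.97), Ces1d (0.01 and 0.01 against 0.54 and 0.49) and Gpm6b (0.05 and 0.05 against 1.84 and 1.13). Bpifa1 had few UMIs in members, and a single cell held 84.3% of those of the irradiated-file library. The median log2 ratio over all genes was -0.10 and -0.13. Without cells that had 2 or more UMIs of fibroblast genes, only 7 and 17 Pdpn cells were left. The log2 ratio was then -0.039 for Wfdc18 in the control-file library and 0.47 for Bpifa1 in the irradiated-file library, so neither difference held in that library. With the rule applied after thinning to 4000 UMIs, there were 194 and 176 Pdpn cells. Bpifa1 was then also higher in members of the irradiated-file library.

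Against all other kept cells, 726 of 16472 genes were higher in members (4.41%) and 4569 were lower (27.7%). The other cells were deeper and of many kinds, and held 45853526 and 66947142 UMIs in sum against 5732801 and 8595489 in members. Many genes could therefore reach the minimum of 50 UMIs through the other cells alone. Cxcl14 (2.25 and 1.90 against 0.28 and 0.22), Col6a2 (4.28 and 4.09 against 0.52 and 0.60), the sulfotransferase Sult5a1 (2.18 and 1.96 against 0.29 and 0.29), the adhesion molecule Cadm4 (0.58 and 0.56 against 0.08 and 0.08), Ces1b and Ifi213 were among the leading named genes. At the other end, Pth, parathyroid hormone, was at 0.01 and 0.02 in members against 3.37 and 2.98. Mpo, Sprr2i, Ltf, Il22 and Pkib had 0 UMIs in members, where 3 UMIs would be 0.0052 and 0.0035 per 10000, and between 0.08 and 0.21 per 10000 in the other cells. Genes at 0 in members reached the minimum only through the other cells, so their call as lower followed from the filter. Of the lists of other TEC types, tuft genes summed to 0.89 and 0.97 in members, mostly Dclk1, and genes of Aire-positive mTECs to 8.16 and 8.62, led by Srgn (3.01 and 3.61) and Ubd (2.79 and 3.12). The list of post-Aire cells summed to 3.53 and 2.75, led by Krtdap (2.12 and 1.69), a gene of differentiating keratinocytes that was also called higher than in Ccl11-low cells (0.80 and 0.75).

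Members were not uniform in several abundant genes. After thinning to 4000 UMIs, 3050 genes had a mean of at least 0.2 UMIs in both libraries, and the median ratio of variance to mean over cells was 1.0799 and 1.07. Besides Gm42418, which overlaps ribosomal RNA sequence, and Malat1, the largest ratios, ranked by the smaller of both libraries, were those of Wfdc18 (40.1 and 32.5), Cxcl10 (17.2 and 27.1), Sprr2a3 (13.4 and 14.6), Cxcl9 (15.2 and 12.3) and Hspb1 (13.6 and 11.9). Ccl11 (13.2 and 11.4) came next, but it was used to choose the members. Sprr2a3 has near-identical neighbours and is uncertain. The tenth of members with the most Wfdc18 held 54.9% and 52.6% of its UMIs. Apoe (10.7 and 10.6), Acta2 (10.4 and 12.3), Chil4 (10.2 and 20.6) and Fabp5 (10.2 and 20.8) followed, with Chil4 and Fabp5 more uneven in the irradiated-file library.

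Between the libraries, most genes of the members stood at similar levels. Of 9667 genes with at least 100 UMIs in members over both libraries, 69 (0.714%) differed by a log2 ratio of at least 1 with an interval that left out 0. Of these, 22 (0.228%) were higher in the irradiated-file library and 47 (0.486%) were higher in the control-file library, and these directions are the opposite under the sample titles. The median log2 ratio of the irradiated-file over the control-file library was -0.00. The 3 markers outside the rule were within a log2 ratio of 0.06, with Acta2 at -0.05 (-0.11 to 0.01), Mgp at 0.06 (0.01 to 0.11) and Col6a1 at 0.05 (-0.02 to 0.13).

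Immediate-early and heat shock genes were the largest group that differed. Of 19 listed genes, all of which could be compared, 8 were called higher in the control-file library and none in the irradiated-file library, with a median log2 ratio of -0.94. The list summed to 227 per 10000 in the control-file library and to 123 in the irradiated-file library. Fos, a subunit of the transcription factor AP-1, was at 18.1 and 7.50, a log2 ratio of -1.27 (-1.33 to -1.21). Atf3, a stress-induced factor, was at 6.63 and 1.85 (-1.84), Dusp1, a phosphatase of MAP kinases, at 4.21 and 1.60 (-1.40), and Egr1 at 9.496 and 4.34 (-1.13). Of the most abundant members of the list, Hspb1 (37.3 and 19.6), Jun (27.4 and 14.3), Hspa1a (22.96 and 12.8) and Jund (19.6 and 13.6) had log2 ratios of -0.93, -0.94, -0.84 and -0.53. These genes also stood lower in other cells of the irradiated-file library. The log2 ratio of Fos was -1.47 in Ccl11-low cells and -1.48 in all other kept cells, and that of Atf3 was -1.99 and -1.86. Such genes respond to tissue dissociation as well as to stress in the animal, and the part of cell preparation was not tested.

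Other genes with the largest differences were of low level, and several came from few cells. Higher in the control-file library, the transcription factor Osr1 was at 0.18 and 0.04 (-2.05), Trem2 at 0.23 and 0.08 (-1.52), Lratd1 at 0.18 and 0.05 (-1.68) and Fam71a at 0.14 and 0.05 (-1.51). A single cell held 88.8% of the control-file UMIs of Saa3 (-3.09), 69.8% of those of Cd52 (-2.43), 51.1% of those of Cst6 (-1.95) and 43.6% of those of Ptgs2 (-2.05), and the values without that cell were not computed. Higher in the irradiated-file library, Pyy was at 0.05 and 0.235 (2.19), with 35.6% of the higher value from a single cell. Fgfbp1, a carrier of fibroblast growth factors, was at 0.13 and 0.37 (1.56), and the lens crystallin Crybb3 at 0.31 and 0.77 (1.32). Idi1 (0.10 and 0.24, 1.27) and Msmo1 (0.19 and 0.45, 1.251) encode enzymes of sterol synthesis. Their log2 ratios were 0.63 and 0.88 in Ccl11-low cells and 0.11 and 0.12 in all other kept cells. The mitotic genes Cks2 (0.08 and 0.20, 1.39) and Mad2l1 (0.04 and 0.11, 1.32) and the sodium channel Scn1a (0.04 and 0.10, 1.27) were also higher, although cells with high Mki67, Top2a or Mcm levels had been left out by the rule. A single cell held 15.2% of the irradiated-file UMIs of Cks2, and no compared gene of the cell cycle list was called.

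**Figure D5:**
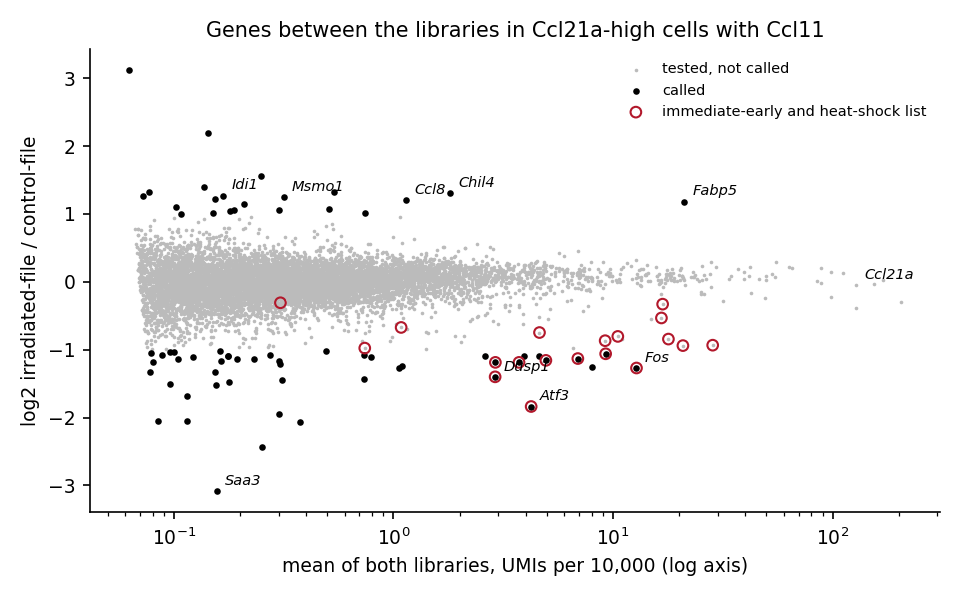
Log2 ratio of the irradiated-file over the control-file library in members (vertical axis) against the mean of both levels in UMIs per 10000 (horizontal log axis), for 9667 genes. Black points are the 69 genes called, and circles mark the 19 immediate-early and heat shock genes, all of which lie below 0. Directions are the opposite under the sample titles.

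Fabp5, a fatty acid-binding protein, was the most abundant gene called in the irradiated-file library, although Fos was higher in the control-file library. Fabp5 was at 12.9 in the control-file library and at 29.2 in the irradiated-file library, a log2 ratio of 1.18 (1.13 to 1.23). It was at 18.0 and 31.4 in Ccl11-low cells (0.80) and had a log2 ratio of 0.39 in all other kept cells. The tenth of members with the most Fabp5 held 49.0% and 51.1% of its UMIs. Of the genes that went with Ccl11, Ccl8 (0.69 and 1.59) had a log2 ratio between libraries of 1.21 (0.99 to 1.43) and Chil4 (1.04 and 2.57) of 1.31 (1.14 to 1.49). In Ccl11-low cells these log2 ratios were 0.56 and 0.09, and in all other kept cells 0.01 and -0.49. Chil3 had a log2 ratio of 0.96 (0.74 to 1.19) and was not called, Ccl7 of -0.58 (-0.82 to -0.33), and Ccl11 itself of 0.04 (-0.00 to 0.08). Of these 3 chemokines only Ccl8 was called. The cell with the most Chil4 held 13.0% and 14.2% of its UMIs, and that with the most Ccl8 12.2% and 10.6%.

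Few genes of the remaining lists were called. Since only 0.714% of all 9667 genes were called, the absence of calls in a short list says little about that list. None of 16 compared p53 targets was called, with a median log2 ratio of 0.20 against -0.00 over all genes. Cdkn1a, the cell cycle inhibitor, was at 0.61 and 0.78 (log2 ratio 0.35, 0.09 to 0.61), Bax at 1.58 and 1.90 (0.27), Phlda3 at 4.13 and 4.08 (-0.02) and Btg2 at 8.69 and 4.40 (-0.98). Of 18 interferon response genes only Oas2 was called, lower in the irradiated-file library, and Isg15, Ifit3 (4.55 and 4.62) and Bst2 (5.32 and 5.05) were within a log2 ratio of 0.17. None of the 11 MHC class II genes was called, with a median log2 ratio of 0.14. None of 12 MHC class I genes, 13 smooth muscle genes, 16 interstitial matrix genes, 15 basement membrane genes or 13 cell cycle genes was called. The mitotic genes Cks2 and Mad2l1, which were called, were not among these. Nfkbiz was called among 22 genes of the NF-κB pathway (1.54 and 0.65), Socs3 among 10 of the STAT list (6.25 and 2.94) and Ccn1 among 18 of the SMAD, Notch and Hippo list (5.37 and 2.52), each higher in the control-file library. Adamts1 of the matrix turnover list and Bmp2 of the growth factor list were likewise higher there, and Ackr4 was higher in the irradiated-file library (log2 ratio 1.01). Cxcl10 was at 14.2 and 7.90, a log2 ratio of -0.84 (-0.91 to -0.78), and was not called.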

How the data were processed

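The authors deposited unnormalized UMI counts per gene and barcode, limited to cell barcodes, from Cell Ranger. The matrix header names version 5.0.1 and the submitters' processing notes name 5.1, and the chemistry version also differs between labels and methods. Cells with over 2000 and under 7500 detected genes (over genes in at least 5 barcodes) and under 15% mitochondrial UMIs were kept. Doublets were not removed beyond the upper limit. Counts were summed over the cells of a set and scaled to 10000 UMIs. Log2 ratios used 0.5 added UMIs, and their ranges combine opposite ends of both intervals. Exact 95% intervals were computed with scipy 1.17.1 under Python 3.11.15. The calls were also run on simulated data, and the outcome is not reported here. The members and gene lists were chosen with earlier results of these data known. Named were the 5 markers, up to 4 abundant genes per list, the leading called genes of each comparison and the most abundant and most variable genes. Fabp5, Ccl2, Ccl7 and the genes ordered by Ccl11 were chosen after their values were seen. Positions are from GENCODE M21 (GRCm38). Flow cytometry was not analysed here. Some genes that the naming rule picked are not reported here.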

Additional observations from a re-analysis of the deposited data

How the results depend on the processing

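No paired analysis was possible because each condition has 1 library. With 1 library of 3 pooled mice, differences between mice, sorts and conditions cannot be told apart, and at about 10000 UMIs per cell genes far under 1 per 10000 are missed in most cells. The log2 ratio of the shares of members between the libraries stayed between -0.07 and 0.02 under the alternatives tried, but their size followed the limits: 17.7% and 17.8% with a Ccl11 limit of 1, 13.3% and 13.6% with 4, 17.2% and 17.4% with a Ccl21a limit of 30, 10.8% and 10.3% with 100, and 14.6% and 14.5% with mitochondrial UMIs under 10%. With the minimum of UMIs lowered 2-fold, 41 and 82 genes were called between the libraries (higher and lower in the irradiated-file library), 105 were lower than in Ccl11-low cells and 485 lower than in Pdpn cells. Raised 2-fold, 33 and 188 were lower in these sets. Alternatives added after seeing the data used a single library. The control-file library alone called 120 genes higher and 149 lower than in Ccl11-low cells, and 695 and 638 against Pdpn cells. The irradiated-file library alone called 101 higher than in Ccl11-low cells and 498 lower than in Pdpn cells. With the rule applied after thinning, 215 genes were higher than in Pdpn cells, and Bpifa1 reversed to 2.25 in the irradiated-file library. Without cells that had 2 or more UMIs of fibroblast genes, mostly Dcn, 264 and 449 members and only 7 and 17 Pdpn cells were left. Then 42 genes were lower than in Ccl11-low cells, 176 higher and 122 lower than in Pdpn cells, Bpifa1 reversed to 0.47 in the irradiated-file library and Wfdc18 to -0.039 in the control-file library. Without thinning, 72.6% and 65.8% of members had a UMI of Acta2, 93.0% and 94.7% of Mgp and 98.2% and 98.7% of Col6a1. Of 1232 further values of named genes under the alternatives, 1124 stayed within their counting intervals, 105 moved and 3 reversed. Leaving out cells with fibroblast UMIs accounted for 58 of the moves and the rule after thinning for 29.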
